A study of Homo sapiens with 52 samples.

Results

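SGC0946 is a small-molecule inhibitor of DOT1L. Its effect on messenger RNA was measured after 6 h in a fusion-positive rhabdomyosarcoma cell line that carries PAX3-FOXO1, within a screen of 20 compounds. The samples described here are the 6 libraries that compare SGC0946 with its vehicle, out of 52 samples in the series. There was 1 SGC0946 library at 10 µM and 1 at 1 µM, and 4 DMSO libraries, of which 2 held 0.2% DMSO and 2 held 0.1% DMSO. The sample titles name the line RH41 and the cell line field names it RH4. These are 2 different lines, and which of them gave these libraries could not be settled from the labels. The labels give no other treatment. Each dose is a single sample, and nothing in the labels says that samples came from separate cultures. The p-values thus measure only the spread between libraries, which may be technical. Unless stated otherwise, they come from a fit of the whole screen, with both doses of a compound as its samples. That spread therefore includes the dose steps of the other compounds and is not the replicate spread of SGC0946 and DMSO alone.

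DOT1L is the histone methyltransferase that places methyl groups on lysine 79 of histone H3, a mark that lies over the bodies of transcribed genes. It has no SET domain, unlike most lysine methyltransferases, and it acts with the AF10, AF9 and ENL proteins (genes MLLT10, MLLT3 and MLLT1). In leukaemias with rearranged KMT2A, DOT1L maintains expression of HOXA genes and MEIS1. Loss of the methyl mark after inhibition depends on histone turnover and cell division, so it is slow compared with the hours used here.

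The SGC0946 libraries were sequenced on flow cell C5JW5ACXX, and the 4 DMSO libraries on flow cells C4JM1ACXX and H144EBGXX. No DMSO library was on C5JW5ACXX, so compound and flow cell cannot be told apart in the comparison with DMSO. A second reference was therefore used, namely the 26 libraries of 13 other compounds on flow cell C5JW5ACXX. They were Bromosporin, EZ-005, LSD-519, LSD-690, Merck60, OJI-1, PFI-2, PFI-3, SGC-CBP30, Trametinib, UNC0638, UNC1999 and WT161, each at 10 and 1 µM. These are active compounds and not a vehicle. SGC0946 gave 9325268 reads at 10 µM and 13320494 reads at 1 µM, the DMSO libraries 16772069 to 22400976, and the other compounds 5737938 to 21137888. Values are TPM, the share of transcripts scaled to a fixed total in every library, and differences are on the log2(TPM + 1) scale, which understates the change of low genes. A gene was called when limma gave a Benjamini-Hochberg adjusted p below 0.05 and a difference of at least 2-fold. The reference compounds differed widely from DMSO themselves. Of 13922 genes, 6 passed that adjusted p at any fold under PFI-3, 2147 under UNC0638, 4998 under WT161 and 5727 under Bromosporin. A level above their mean can thus also reflect lower levels under some of them. All 8 rhabdomyosarcoma markers examined, among them MYOD1, MYOG, DES and FGFR4, were present at 35.9 TPM or more in the 6 libraries. The blood markers PTPRC, HBB and SPI1 were at 0 in all 6 libraries, and the blood list summed to 1.98 TPM at 10 µM, 1.02 TPM at 1 µM and 1.09 to 2.04 TPM in DMSO. Summed epithelial markers were at most 0.173 TPM, and summed endothelial markers were 2.01 TPM at 10 µM, 1.36 TPM at 1 µM and 1.10 to 1.41 TPM in DMSO. The adipocyte and neuron list summed to 7.70 TPM at 10 µM, 8.12 TPM at 1 µM and 6.29 to 7.47 TPM in DMSO. In bulk RNA, fewer cells of a type and less RNA per cell cannot be told apart.

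The largest coordinated difference was in the genes of cholesterol synthesis, and it was seen at 10 µM. Cells sense low sterol in the endoplasmic reticulum, whereupon SREBP transcription factors are released from INSIG-bound complexes and raise the enzymes of the mevalonate and sterol pathway. Of 30 tested genes of this list, the median difference from DMSO was 1.26 at 10 µM and 0.18 at 1 µM (log2), against 0.02 and 0.04 over all 13922 genes tested. At 10 µM, 19 of the 30 genes (63.3%) were at least 2-fold above DMSO, against 1.84% of all genes. At 1 µM none was, against 1.1% of all genes.

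INSIG1, the sterol-sensing retention protein and itself an SREBP target (chr7:155089486-155101945, plus strand, hg19), was at 277 TPM at 10 µM and 84.1 TPM at 1 µM. The 4 DMSO libraries were at 77.3, 78.8, 79.2 and 83.3 TPM. The 10 µM library thus lay far above all DMSO libraries and the 1 µM library lay just above them, a ratio of 3.48 to the DMSO mean of 79.6 ± 2.25 TPM (SD, n = 2 concentrations) at 10 µM.

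HMGCS1, which makes HMG-CoA at the entry of the pathway (chr5:43287572-43313614, minus strand, hg19), was at 292 TPM at 10 µM and 103 TPM at 1 µM. DMSO gave 82.0, 83.8, 90.5 and 94.1 TPM. The 2 SGC0946 samples were again both above DMSO, and only the 10 µM sample was more than 2-fold above it.

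Later steps of the pathway behaved likewise. MVD, which forms isopentenyl diphosphate (chr16:88718348-88729557, minus strand, hg19), was at 154 TPM at 10 µM and 53.6 TPM at 1 µM, with 44.8, 45.1, 46.7 and 51.9 TPM in DMSO. FDFT1, squalene synthase, was at 702 and 284 TPM at 10 and 1 µM against a DMSO mean of 228 ± 13.8 TPM (SD, n = 2). LSS, lanosterol synthase, was at 162 and 58.2 TPM against 51.9 ± 2.75 TPM in DMSO.

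The list also held members with small differences. SREBF2, which encodes the factor that drives the pathway, was at 247 TPM at 10 µM and 201 TPM at 1 µM, with a DMSO mean of 185 ± 8.70 TPM. FASN, the fatty acid synthase, was 0.67 above DMSO at 10 µM and 0.13 below it at 1 µM (log2). PMVK, phosphomevalonate kinase, was the 1 member below DMSO at 10 µM, with 29.5 TPM against 37.3 ± 1.79 TPM.

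**Figure D1:**
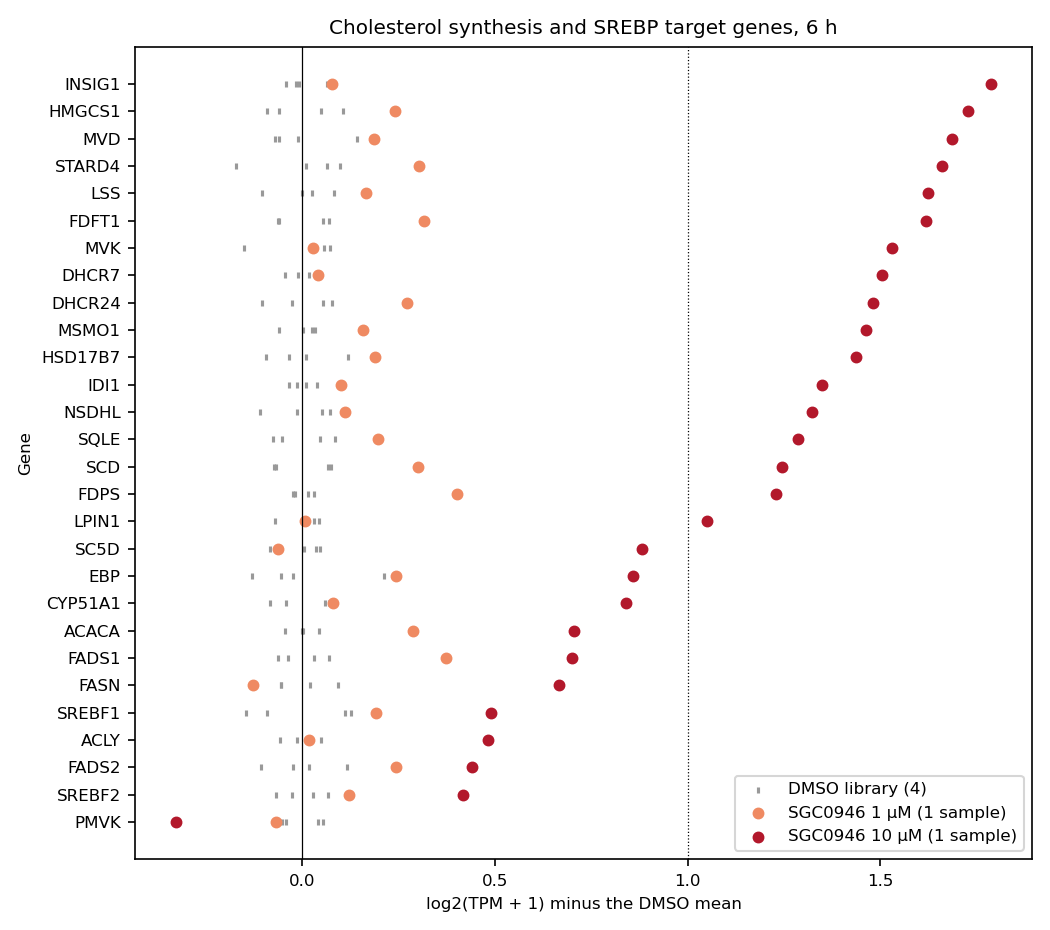
Difference from the DMSO mean on the log2(TPM + 1) scale (horizontal axis) for 28 of the 30 tested cholesterol synthesis and SREBP target genes (vertical axis). Filled points are the single SGC0946 samples at 10 µM (dark red) and 1 µM (orange), grey ticks are the 4 DMSO libraries, and the dotted line marks 2-fold. At 10 µM 17 of the 28 genes lie past that line, and at 1 µM none does.

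With both doses as samples of 1 group, none of the 30 genes passed the adjusted threshold against DMSO by limma (FDPS did by limma-voom on whole reads, with the 4 DMSO libraries separate, with DMSO of H144EBGXX only and with the GC and length correction, adjusted p = 0.00807 to 0.0496), while 16 were higher at an unadjusted p below 0.05 and none lower, against 4.24% of all genes higher at that p. Their median difference with both doses was 0.73 against 0.03 over all genes. When the 10 µM sample was fitted alone, 3 members passed at an adjusted p below 0.05 in limma, against 0.108% of all genes. They were FDPS (farnesyl diphosphate synthase, log2 difference 1.23 ± 0.19 SE, adjusted p = 0.00662), MVD (1.69 ± 0.32, adjusted p = 0.0406) and HSD17B7 (1.44 ± 0.29, adjusted p = 0.0439). In that fit 25 of the 30 were higher at an unadjusted p below 0.05, against 3.94% of all genes. For the 1 µM sample alone 1 of 30, FDPS, did so, against 1.8% of all genes. These fits assume that the lone sample varies like the other compounds of the screen, for which the spread within a compound includes their own dose steps.

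Between the doses, 313 of 13922 genes (2.25%) differed by 2-fold or more, 147 higher at 10 µM (1.06%) and 166 lower (1.19%). This comparison has 1 sample a side and no replicate check. Many of these genes rest on few reads. Among the 10684 genes with a mean of at least 5 TPM that are not small RNAs, 30 (0.281%) differed 2-fold, of which 25 were higher at 10 µM. Of those 25, 16 were members of the cholesterol list. The 9 others, named after their values were seen, were HSD17B7P2, ACAT2, TM7SF2, FABP3, OLMALINC, SNHG9, C14orf1, LOC101929125 and PXN-AS1. ACAT2, a cytosolic thiolase that supplies acetoacetyl-CoA to HMG-CoA synthase, was at 501 TPM at 10 µM and 213 TPM at 1 µM, with 162, 179, 176 and 178 TPM in DMSO. TM7SF2, a sterol reductase, was at 24.3 and 9.84 TPM with 7.39 to 8.56 TPM in DMSO. HSD17B7P2 is a pseudogene of HSD17B7, so reads may be split between them and its value is uncertain. Of the 5 genes lower at 10 µM, SPRY4, a feedback inhibitor of receptor tyrosine kinase signalling, was at 17.7 TPM at 10 µM and 36.9 TPM at 1 µM, and DMSO at 20.1 to 27.3 TPM lay between them. MEG8, DARS-AS1, PET117 and CNTFR were the others, all 5 named after their values were seen, each with fewer than 100 reads in either SGC0946 sample.

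Between the vehicle concentrations, 0.2% for the higher doses and 0.1% for the lower, the median difference of the 30 genes was -0.07 (0.2% minus 0.1%, log2). Over all genes, limma called 0 of 13922 between the DMSO concentrations at an adjusted p below 0.05, with 1164 (8.36%) at an unadjusted p below 0.05.

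SGC0946 was not alone in the screen in raising these genes, and the values are given side by side. On its flow cell the list median at 10 µM ranged from -0.41 to 1.66 over 13 other compounds, with a median of 0.37. The median for SGC0946, 1.26, was exceeded by UNC0638 (1.66) and was close to that of EZ-005 (1.26), followed by LSD-690 (0.85). These compounds are labelled as inhibitors of KMT1C, EZH2 and LSD1. At 1 µM SGC0946 (0.18) stood in the middle of the 13 others, which ran from -0.14 to 0.70, with 6 above it and 7 below. The step from 1 to 10 µM was 1.08 for SGC0946 and 1.11 for UNC0638, and at most 0.65 for the 15 other compounds given at these doses. PFI-3, Merck60 and Bromosporin lay below the DMSO mean at both doses. Bromosporin at 1 µM (-0.04) was within the range of the 4 DMSO libraries (-0.044 to 0.048). Against the other compounds of the flow cell the median of the 30 genes was 0.32 with both doses together, 28 of the 30 were higher, and FDPS alone passed (0.58 ± 0.14 SE, limma adjusted p = 0.0461). Without the 10 µM sample its difference was 0.16 (adjusted p = 0.999), and its call was also lost under 5 other settings, with adjusted p from 0.0513 to 0.263. With the 10 µM sample alone the median against the other compounds was 0.86. In that fit 25 of the 30 were higher at an unadjusted p below 0.05, against 5.63% of all genes, and 2 of them, MVD and FDPS, at an adjusted p below 0.05, against 0.0862%. The 1 µM sample alone had a median of -0.14 against the other compounds.

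**Figure D2:**
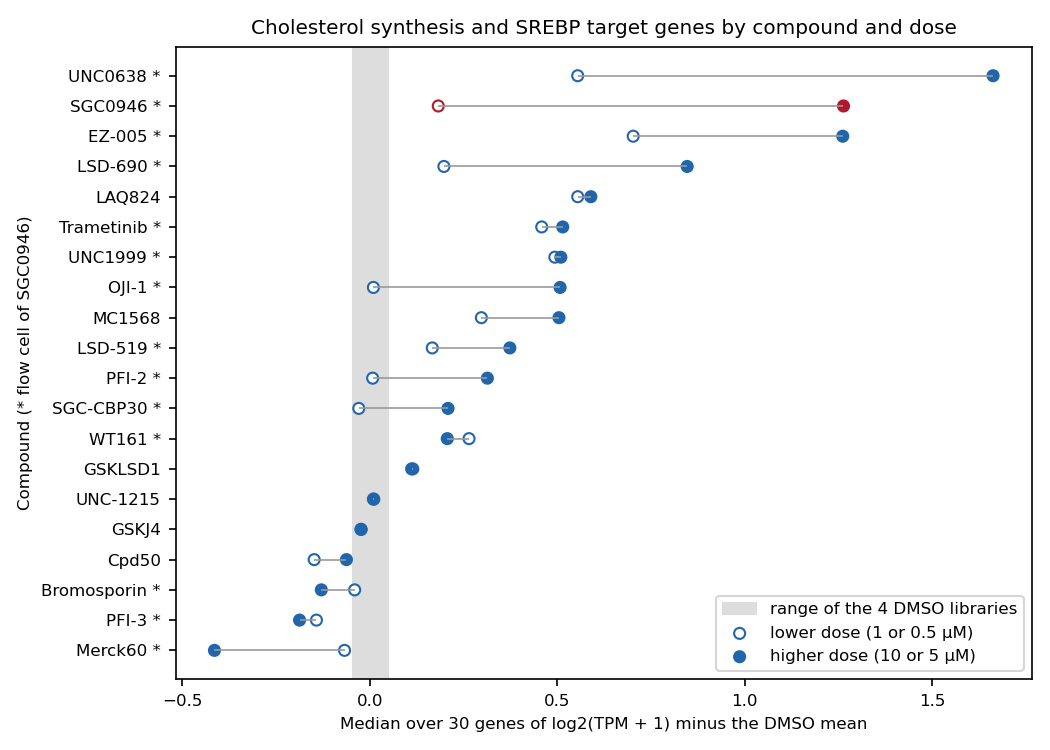
Median difference from the DMSO mean over the 30 cholesterol genes (horizontal axis, log2(TPM + 1)) for each of the 20 compounds of the screen (vertical axis) at the higher dose (filled) and lower dose (open). SGC0946 is in red, the grey band is the range of the 4 DMSO libraries, and an asterisk marks the flow cell of SGC0946. SGC0946 goes from 0.18 at 1 µM to 1.26 at 10 µM, a step close to that of UNC0638.

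Sequence letters upstream of these genes were read from the RefSeq promoter table (GRCh38.p14, 250 bases before to 50 after each start), which held 24 of the 30 genes. The letters of 5 short motifs were searched on both strands, some of which overlap each other. The CCAAT box, the binding sequence of the NF-Y factor, was in a promoter of 19 of the 24 genes, against 39.7% of all 27305 symbols. The sterol regulatory element written as TCACNCCAC was in 1 of 24, SREBF2, against 1.39% of symbols. One form of its last letters, CACCCCAC, was in 1 of 24 as well (3.39% of symbols). Its first letters, TCACNCC, were in 8 of 24 (18.2%), and the E-box CACGTG in 3 of 24 (8.77%). A match is a description of letters and not a site. The windows below are shown because they stand before genes with some of the largest steps between the doses, or hold the sterol element. Each is read 5′ to 3′ on the strand of the gene, with the matched letters in capitals (ATTGG is CCAAT on the opposite strand).
INSIG1, chr7:155297696-155297725, plus strand, GRCh38.p14: cgccggcctcccATTGGttgcggccgcctc
MVD, chr16:88663159-88663188, minus strand, GRCh38.p14: ggctcgcacgggCCAATcctgtggtagcgc
MVD, chr16:88663233-88663262, minus strand, GRCh38.p14: ccgatcccgtccATTGGctgagaggtaatg
LSS, chr21:46228907-46228936, minus strand, GRCh38.p14: cgcggcgctctgATTGGttgcgtgggcgtc
SREBF2, chr22:41832962-41832991, plus strand, GRCh38.p14: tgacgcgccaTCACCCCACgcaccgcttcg
MVD held 3 CCAAT matches within 250 bases of its start, of which 2 are printed, and SREBF2 is itself among the 19 genes with a CCAAT match.

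Gene by gene, few transcripts separated SGC0946 from DMSO at both doses. Of 13922 genes tested, 14 (0.101%) were called, 10 higher (0.0718%) and 4 lower (0.0287%), and 30 (0.215%) had an adjusted p below 0.05 at any fold. Among the 10 higher, 4 were small RNA rows resting on few reads (such as SNORD110, with 47 and 58 reads), and the 6 others were CCDC80, GABRE, NCALD, MALAT1, PRRT2 and CD36.

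CCDC80, a secreted matrix protein (chr3:112323233-112359990, minus strand, hg19), was at 35.1 TPM at 10 µM and 33.6 TPM at 1 µM, and at 12.8, 13.98, 14.3 and 13.1 TPM in DMSO. Both SGC0946 samples lay above every DMSO library, as they did for 27.1% of all genes (18.9% lay below all). The difference was 1.28 ± 0.18 (log2, SE, limma adjusted p = 0.00151). GABRE, a subunit of the GABA-A receptor (chrX:151121596-151143151, minus strand, hg19), was at 28.1 and 22.4 TPM, with DMSO at 10.1, 9.40, 7.82 and 8.35 TPM, a difference of 1.40 ± 0.21 (adjusted p = 0.00241). GABRE also spans MIR224 and MIR452, whose reads cannot be set apart from its own. CD36, a scavenger receptor for fatty acids and oxidised lipoprotein, was at 39.6 and 40.6 TPM with 17.6 to 19.6 TPM in DMSO (1.07 ± 0.22, adjusted p = 0.0278). NCALD, a neuronal calcium sensor, was at 6.95 and 6.78 TPM with 1.54 to 2.19 TPM in DMSO (1.44 ± 0.24, adjusted p = 0.00601). PRRT2, a presynaptic membrane protein, was at 22.3 and 21.4 TPM with 9.12 to 11.3 TPM in DMSO (1.03 ± 0.19, adjusted p = 0.0178).

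Other compounds gave levels close to these. On the same flow cell the 26 libraries of other compounds reached 37.8 TPM for CCDC80, 24.8 TPM for GABRE, 43.9 TPM for CD36, 7.93 TPM for NCALD and 32.7 TPM for PRRT2, and PFI-2 alone was at 37.8 and 31.9 TPM for CCDC80 at 10 and 1 µM. Against the mean of the 13 other compounds the rises were smaller, from 0.68 for CD36 to 0.85 for GABRE, each under 2-fold with an adjusted p between 0.00355 and 0.0461.

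The 4 lower genes were ATP5E, GNG10, NME2 and a microRNA row with 0 reads under SGC0946 and 1 in DMSO. ATP5E, the epsilon subunit of the mitochondrial ATP synthase (chr20:57603733-57607422, hg19), was at 92.1 and 87.0 TPM under SGC0946. DMSO was at 200 and 204 TPM on C4JM1ACXX and at 538 and 544 TPM on H144EBGXX, so that the DMSO libraries of 1 concentration differed more between flow cells than the lower of them did from SGC0946. The fall of 1.87 ± 0.25 (log2, adjusted p = 0.00102) had no counterpart within the flow cell, where the other compounds ran from 42.3 to 122 TPM and the difference was 0.05 ± 0.18 (adjusted p = 0.942). GNG10, a G protein gamma subunit, was at 2.13 and 1.67 TPM, with 2.79 and 3.25 TPM in DMSO on C4JM1ACXX and 11.4 and 12.4 TPM on H144EBGXX. NME2, a nucleoside diphosphate kinase that was named after its values were seen because its samples overlap DMSO, was at 4.20 and 3.71 TPM, with 5.19 and 4.03 TPM in DMSO on C4JM1ACXX and 21.4 and 19.98 TPM on H144EBGXX. Against DMSO of flow cell C4JM1ACXX alone, GNG10 differed by -0.47 (adjusted p = 0.749) and NME2 by -0.18 (adjusted p = 1). GNG10 and NME2 share exons with the read-through genes DNAJC25-GNG10 and NME1-NME2, so their levels are uncertain.

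**Figure D3:**
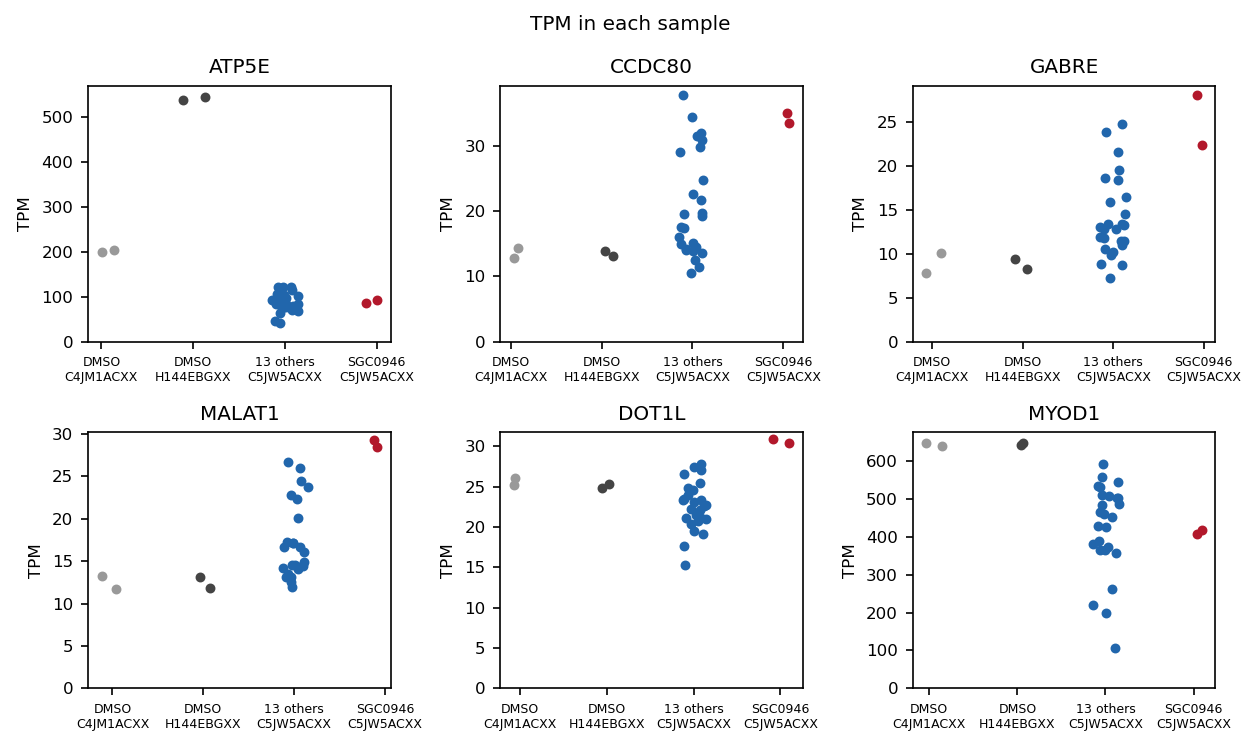
TPM (vertical axis, linear, from 0) of 6 genes in every library of 4 groups: DMSO on flow cell C4JM1ACXX (2), DMSO on H144EBGXX (2), 13 other compounds on C5JW5ACXX (26) and SGC0946 (2). ATP5E splits by flow cell, with SGC0946 inside the range of the other compounds, while MALAT1 and DOT1L under SGC0946 lie above all 26.

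Within the flow cell, 12 of 13922 genes (0.0862%) were called against the mean of the 13 other compounds, 11 higher (0.079%) and 1 lower (0.00718%). At any fold 114 genes (0.819%) passed, 107 higher (0.769%) and 7 lower (0.0503%). Both SGC0946 samples lay above all 13 compound means for 3.05% of genes. Of the 11 called higher, 8 were small RNA rows, and the 3 others were SPACA6, CCR7 and YJEFN3. SPACA6, a sperm protein needed for gamete fusion, was at 22.3 and 19.0 TPM under SGC0946 with 2.28 to 16.8 TPM under the other compounds and 10.1 to 11.6 TPM in DMSO (1.17 ± 0.25 against the other compounds, limma adjusted p = 0.0241). Its exons overlap MIR125A on the same strand and an antisense gene. YJEFN3 was at 15.9 and 17.3 TPM with 4.42 to 15.1 TPM under the others (1.00 ± 0.23, adjusted p = 0.0313), and its exons overlap those of NDUFA13. CCR7, a chemokine receptor named after its values were seen, was at 3.79 and 4.57 TPM with 0 to 6.26 TPM under the others. The calls of SPACA6, YJEFN3 and CCR7 were lost without either SGC0946 sample, when fitted on that flow cell alone (adjusted p = 0.116 to 0.184) and without HDAC, bromodomain and MEK compounds in the reference (adjusted p = 0.0591 to 0.195). PSPN, a neurotrophic factor also named afterwards and the only gene called lower, had 0 reads in both SGC0946 libraries and 4 to 10 in DMSO. The 3 reads that a count of 0 allows would be 1.89 TPM at 10 µM and 1.34 TPM at 1 µM, within the 1.29 to 3.47 TPM of DMSO, so although it passed (adjusted p = 0.0152) no fold is given for it.

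The 98 genes that passed at any fold with higher levels, leaving out small RNAs, are given as a description of the genes so chosen. The 10 with the smallest p that are not named above, chosen after their values were seen, were ARHGAP33, CDK5RAP3, ARHGEF25, PGGHG, SLC26A10, PIDD1, DDX12P, NRBP2, MAPK15 and MICAL1, with log2 differences of 0.51 to 0.99 and adjusted p between 0.00169 and 0.00355. ARHGAP33, a GTPase activating protein, was at 29.3 and 25.1 TPM with 12.9 to 15.5 TPM in DMSO and at most 27.3 TPM under the other compounds. PIDD1, the scaffold of the PIDDosome that activates caspase-2, was at 154 and 136 TPM with 96.4 to 98.0 TPM in DMSO and at most 160 TPM under the others. DDX12P is a pseudogene of the DDX11 family, so its value is uncertain. The median GC content was 59.9% for the 91 genes with a value, against 47.9% over all tested genes with one. The Spearman correlation of GC content with the difference from DMSO was -0.223 and -0.19 for the SGC0946 libraries and -0.33 to 0.299 among the DMSO libraries. For the 26 others it was -0.653 to -0.06 with a median of -0.34, and 4 of them lay above both SGC0946 libraries. Relative to most of that reference, the SGC0946 libraries were thus shifted towards genes of higher GC content. The part of base composition in these differences was not tested beyond a GC and length correction. Under it 87 genes passed at any fold in either direction, against 114 without it. The 87 are thus not a share of the 98, and the correction held only the 12632 genes with a GC value.

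The same 98 genes were chosen as higher under SGC0946 than the mean of the 13 other compounds. A higher median under SGC0946 than under those compounds thus follows in part from that choice. The median difference of the 98 genes from DMSO was 0.54 under SGC0946, 0.29 under PFI-2 (83 of 98 above DMSO) and 0.26 under UNC1999 (82 of 98). It was between -0.23 and 0.02 under the 11 remaining compounds of the flow cell, of which Merck60 had 52 of 98 above DMSO. Tested directly against each compound, SGC0946 differed from UNC1999 in 0 of 13922 genes by limma at an adjusted p below 0.05 (304 at an unadjusted p below 0.05, and 0 by limma-voom on whole reads). It differed from PFI-2 in 2 genes, from Merck60 in 2 and from PFI-3 in 1, and from Bromosporin, which differed most, in 6086. PFI-2 targets SETD7 and UNC1999 targets EZH1 by their labels.

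**Figure D4:**
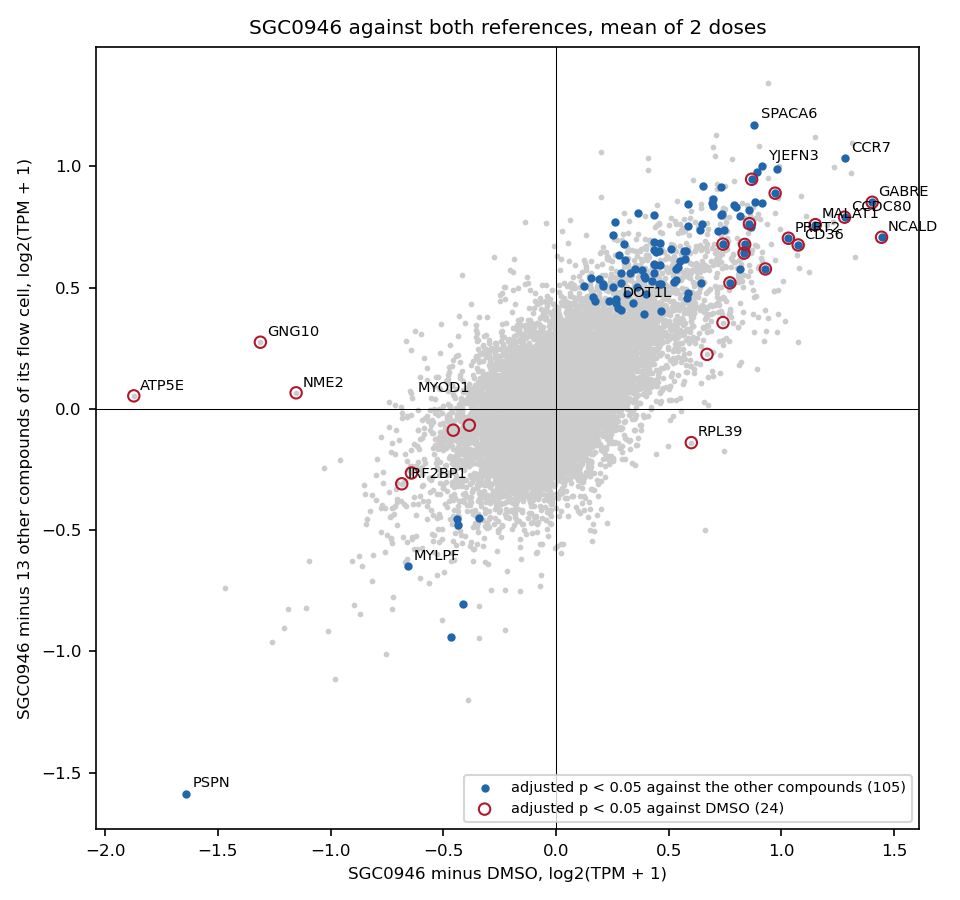
Difference of SGC0946 (mean of 2 doses) from DMSO (horizontal axis) against its difference from the 13 other compounds of its flow cell (vertical axis), both in log2(TPM + 1), for all tested genes other than small RNAs. Blue points passed against the other compounds and red circles passed against DMSO at an adjusted p below 0.05. The axes share the SGC0946 samples. ATP5E, GNG10 and NME2 lie far to the left at about 0 on the vertical axis, apart from GNG10 at 0.27.

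Long noncoding RNAs MALAT1, MEG3 and NEAT1 are given together, MEG3 and NEAT1 having been chosen after their values were seen. MALAT1, a long noncoding RNA of nuclear speckles, was at 29.3 and 28.5 TPM with 13.2, 13.1, 11.8 and 11.8 TPM in DMSO. All 26 libraries of other compounds on the flow cell were lower, at 12.01 to 26.7 TPM. The difference was 1.15 ± 0.19 from DMSO (adjusted p = 0.00601) and 0.76 ± 0.14 from the other compounds (adjusted p = 0.00594). MEG3, an imprinted long noncoding RNA, was at 57.7 and 52.4 TPM with 28.5 to 31.9 TPM in DMSO (0.83 ± 0.17, adjusted p = 0.0298), and the other compounds of the flow cell reached 55.3 TPM. Its call against DMSO was lost with median-ratio scaling (adjusted p = 0.0895), with the GC and length correction (adjusted p = 0.0597) and without either SGC0946 sample (adjusted p = 0.107 and 0.636). NEAT1, the scaffold of paraspeckles, was at 28.4 and 23.1 TPM with 9.40 to 10.1 TPM in DMSO. It did not pass by limma against DMSO (1.31 ± 0.38, adjusted p = 0.24) or within the flow cell (0.97 ± 0.28, adjusted p = 0.108), where it passed by limma-voom (adjusted p = 0.043). Against DMSO it passed with the 4 DMSO libraries separate (limma adjusted p = 0.0394) and with the SGC0946 and DMSO samples alone (limma adjusted p = 0.0327). PFI-2 and UNC1999 had MALAT1 at 22.8 to 26.7 TPM, and the 4 compound libraries on H144EBGXX had 38.1 to 48.5 TPM, against 13.1 and 11.8 TPM in DMSO on that flow cell. The 4 compound libraries on C4JM1ACXX had 18.2 to 24.2 TPM, against 13.2 and 11.8 TPM in DMSO there. On H0VWNAGXX the 4 compound libraries had 25.6 to 36.5 TPM.

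The targeted gene was not lowered. DOT1L itself (hg19 chromosome 19) was at 30.9 and 30.4 TPM under SGC0946 and at 25.2, 24.8, 26.1 and 25.3 TPM in DMSO, so both SGC0946 samples were above all DMSO libraries. The difference from DMSO was 0.27 ± 0.13 (95% interval -0.01 to 0.54, limma adjusted p = 0.76). The other compounds of the flow cell ranged from 15.3 to 27.8 TPM, and against their mean DOT1L was higher by 0.44 ± 0.10 (limma adjusted p = 0.0304), with all 13 compound means below SGC0946. This call was lost when fitted on that flow cell alone (limma adjusted p = 0.15) and without HDAC, bromodomain and MEK compounds in the reference (adjusted p = 0.105). It was also lost with the GC and length correction (limma adjusted p = 0.0539) and without either SGC0946 sample. Compounds on other flow cells reached higher DOT1L levels, with 32.8 to 44.4 TPM on H0VWNAGXX, 26.4 to 42.0 TPM on C4JM1ACXX and 18.6 to 36.0 TPM on H144EBGXX. An inhibitor acts on the enzyme, so the transcript level does not check its activity, and histone methylation was not measured in these libraries. PLEKHJ1 and an unnamed gene on the opposite strand overlap exons of DOT1L, and whether the counting used strand is not given in the sources used here.

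Of the 10 tested genes for DOT1L and its partners, DOT1L was the only one to pass within the flow cell, and none passed against DMSO. MLLT6, the AF17 protein that binds DOT1L, was at 85.7 and 82.9 TPM with 61.6 to 69.8 TPM in DMSO (0.37 ± 0.18, adjusted p = 0.745). MLLT10 was at 21.9 and 19.0 TPM with 15.6 to 16.1 TPM in DMSO, and MLLT1 at 37.9 and 42.8 TPM with 43.4 to 48.8 TPM. MLLT3 was at 5.27 TPM at 10 µM, within the DMSO range of 5.08 to 5.31 TPM, and at 3.81 TPM at 1 µM, below it. The median difference of these 10 genes was 0.05 from DMSO and 0.07 from the other compounds, against 0.03 and 0.04 over all genes.

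Genes that depend on DOT1L in leukaemia showed no difference that passed. Of 22 tested, none passed either comparison by limma, with 0 at an unadjusted p below 0.05 against DMSO and 1 against the other compounds, and their medians were 0.05 against DMSO and 0.15 against the other compounds. HOXA7 had the largest difference from DMSO, with 14.8 and 13.4 TPM under SGC0946 and 17.7 to 20.7 TPM in DMSO, a difference of -0.45 from DMSO and 0.04 from the other compounds. HOXA5 was at 10.4 and 11.02 TPM with a DMSO mean of 10.6 TPM, and MEIS1 differed from its DMSO mean of 18.8 TPM by 0.08 (log2). Among 25 histone lysine methyltransferases and related enzymes none passed by limma, with 2 higher at an unadjusted p below 0.05 against DMSO. EZH1 had the largest difference, with 33.6 and 31.3 TPM against 18.7 to 22.7 TPM in DMSO (0.64 ± 0.17, adjusted p = 0.166), and EZH2 followed with 169 and 152 TPM against 113 to 123 TPM. Both encode the catalytic subunit of the polycomb complex that methylates lysine 27 of histone H3. Of 13 super elongation complex genes and 14 of the H2B ubiquitin and PAF1 machinery, which acts upstream of DOT1L, none passed by limma, with 0 at an unadjusted p below 0.05 against DMSO in both lists. HEXIM1, which holds P-TEFb inactive, was at 24.2 and 32.6 TPM, below all DMSO libraries at 40.5 to 43.5 TPM, with adjusted p = 0.999 against DMSO and 0.344 against the other compounds. MAT2A, which makes the methyl donor S-adenosylmethionine, was at 448 and 442 TPM with 324 to 338 TPM in DMSO, and was not called (0.42 ± 0.19, adjusted p = 0.665).

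The 6 core regulatory transcription factors of this tumour, MYOD1, MYOG, SOX8, MYCN, FOXF1 and PAX3, were all lower than DMSO on average and all higher than the mean of the other compounds, and none passed either test by limma, with 1 lower at an unadjusted p below 0.05 against DMSO. MYOD1, the master regulator of the muscle lineage, was at 419 and 407 TPM with 640 to 648 TPM in DMSO (-0.64 ± 0.36, adjusted p = 0.854). The other compounds of the flow cell were at 106 to 592 TPM, so every library of that flow cell was below DMSO, and against their mean the difference was 0.05 ± 0.26. SOX8 was at 512 and 513 TPM with 664 to 707 TPM in DMSO (-0.42 ± 0.17, adjusted p = 0.508) and differed by 0.00 from the other compounds. MYOG, which drives terminal differentiation, was at 552 and 513 TPM with 572 to 587 TPM in DMSO. MYCN was at 54.4 and 52.6 TPM with 53.3 to 57.5 TPM in DMSO, within the DMSO range at 10 µM. Without the rest of the screen in the fit, MYOD1 and SOX8 passed against DMSO (limma adjusted p = 0.0295 for MYOD1 and 0.0327 for SOX8). In that fit 491 of 13922 genes passed at any fold, against 30 with the whole screen, and compound and flow cell cannot be told apart there.

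Of the muscle contraction genes 21 were tested, with medians of -0.18 against DMSO and 0.05 against the other compounds. MYLPF, the fast skeletal regulatory light chain, was the 1 member to pass, within the flow cell, at 8.43 and 14.6 TPM with 16.0 to 20.4 TPM in DMSO and 10.7 to 29.9 TPM under the others. Its fall of 0.65 ± 0.16 (log2, adjusted p = 0.0423) became 0.29 without the 10 µM sample, with adjusted p = 0.999. TNNC1, the slow troponin C, was at 0.855 and 1.81 TPM with 2.48 to 3.85 TPM in DMSO, on 2 and 6 reads under SGC0946, and did not pass.

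Other responses were small. In the ATF4 and unfolded protein response list, 21 of 26 genes were above DMSO with a median of 0.20, of which none passed, and DDIT3, a stress transcription factor, was at 83.8 TPM at 10 µM and 55.4 TPM at 1 µM with a DMSO mean of 42.0 TPM. Against the other compounds the median of that list was -0.01. Of 28 oxidative phosphorylation genes, 19 were lower than DMSO and ATP5E alone passed by limma with the whole screen in the fit. With the SGC0946 and DMSO samples alone, NDUFB7 and COX5B, subunits of complexes I and IV, passed as well (limma adjusted p = 0.0353 and 0.0458). They were among 491 of 13922 genes that passed in that fit. In no other list did a member pass in either comparison. Their medians against DMSO and against the other compounds were -0.05 and -0.17 for 18 p53 targets, -0.04 and -0.21 for 20 immediate early genes, and -0.01 and -0.02 for 14 heat shock proteins. They were 0.07 and 0.10 for 29 DNA replication genes, 0.09 and 0.09 for 26 mitosis genes, and 0.08 and -0.08 for 14 interferon response genes. They were -0.03 and -0.15 for 25 hypoxia and glycolysis genes, 0.11 and -0.14 for 3 metallothioneins, 0.00 and -0.06 for 19 methionine cycle and polyamine genes, and -0.01 and 0.02 for 9 genes of adenosine and nucleoside handling. For 21 rhabdomyosarcoma markers they were 0.01 and 0.14.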

How the data were processed

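Poly-A RNA was sequenced. The paper states that reads were mapped with STAR to the hg19 genome and that TPM came from RSEM with a UCSC reference. The submitters' processing notes name STAR and edgeR, and which tool gave the deposited TPM could not be settled here. The deposited values were TPM for 27043 genes per sample. The values of all 23037 genes above 0 were whole multiples of a read (within 0.001 reads), which gave read totals. Flow cells were read from the names of the deposited data. Members and gene lists were chosen with earlier results of these data known. Genes at 1 TPM or more in at least 2 of the 6 samples were tested with limma 3.58.1 (R 4.3.3, trend) on log2(TPM + 1), in 1 fit of all 44 screen samples with both doses of a compound as its samples. DMSO libraries of a concentration differed, beyond flow cell, only by sampling noise (variance 1.03 times counting noise over 10378 genes) and were averaged, giving n = 2. Named were up to 12 called genes in each direction with a mean of at least 2 TPM and both SGC0946 samples outside the reference range, DOT1L and its partners, and list members called or among the 4 largest differences. All other names, cholesterol genes included, were chosen after their values were seen. Gene positions are those of the files, overlaps are from GENCODE on GRCh37. In simulated data of 14106 genes, 90% of 2-fold changes passed an adjusted p below 0.05 against DMSO, with 3 false calls. Within the flow cell 95% did, with 25 false calls. Apart from the added changes, the simulation gave all libraries 1 profile, without compound, dose or flow cell effects. It therefore cannot say what share of such changes would be recovered in these data. Alternatives on whole reads (limma-voom), on GC and length, on a read minimum and without small RNA rows were added after the data were seen. Values of some single genes are not reported here.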

Additional observations from a re-analysis of the deposited data

How the results depend on the processing

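The count of genes called against DMSO (14) was 9 at a mean of at least 5 TPM, 8 where a minimum of 20 reads was asked of all 6 samples, 9 without small RNA rows, 50 with the SGC0946 and DMSO samples alone and 26 with DMSO of flow cell H144EBGXX only. At any fold (30) it was 491 with the SGC0946 and DMSO samples alone, 138 with the 4 DMSO libraries kept separate and 56 with DMSO of H144EBGXX only. Leaving out 1 library at a time gave 2 to 16 called and 2 to 30 at any fold, with 2 and 2 without the 10 µM sample and 13 and 17 without the 1 µM sample. Within the flow cell (12 called, 114 at any fold) the counts were 3 at a mean of at least 5 TPM, 3 at that read minimum, 4 without small RNA rows, 29 by limma-voom, and 6 and 33 when fitted on that flow cell alone. The reference without HDAC, bromodomain and MEK compounds gave 52 at any fold. Without the 10 µM sample 2 and 2 passed, and without the 1 µM sample 8 and 13. Between the doses, 552 genes differed 2-fold with a pseudocount of 0.1 and 82 at a mean of at least 5 TPM, against 313. The causes were not tested, apart from the fewer genes or samples that some alternatives hold. Within the flow cell the calls of CCDC80, GABRE, NCALD, MALAT1, CD36, PRRT2, MEG3, SPACA6, YJEFN3, CCR7, PSPN and DOT1L were lost without either SGC0946 sample. So were those of MAPK15, PGGHG, SLC26A10, NRBP2 and MICAL1. ARHGAP33, CDK5RAP3, ARHGEF25, PIDD1 and DDX12P lost theirs there without the 10 µM sample. The calls of SPACA6, YJEFN3, CCR7, NCALD, CD36, FDPS, MYLPF and DOT1L were lost both on that flow cell alone (limma adjusted p = 0.116 to 0.263) and with the narrower reference (adjusted p = 0.0591 to 0.253). FDPS also lost its call with a pseudocount of 0.1, without the filter on low values and with the GC and length correction (adjusted p = 0.0513 to 0.057), and DOT1L with that correction (adjusted p = 0.0539). COX5B passed against DMSO with the 4 DMSO libraries separate (adjusted p = 0.0126) and with the GC and length correction (adjusted p = 0.0442). CCDC80, GABRE, NCALD and MALAT1 lost theirs against DMSO without the 10 µM sample (adjusted p = 0.0575 to 0.163) and PRRT2, CD36 and GNG10 without either. No result that had passed turned its direction under any alternative run. Replicate numbers of the DMSO libraries follow their flow cells. With the replicate block, the DMSO concentrations differed in 1857 genes at an unadjusted p below 0.05 and 0 at an adjusted one, against 1164 and 0. With the dose level (high or low) as a term, which pairs 10 µM with 0.2% and 1 µM with 0.1% DMSO, 15 genes were called against DMSO and 35 passed at any fold, and within the flow cell 12 and 120.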
